A study of Mus musculus with 8 samples.

Results

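The 10 genes described here encode peptide hormones of the islet and the gut: Ins1, Ins2, Gcg, Sst, Ppy, Pyy, Ghrl, Iapp, Gast and Cck. They were taken by gene symbol, and each matched 1 of the 55536 genes in the count table. All 8 libraries came from MIN6, a mouse insulinoma line that serves as a model of the pancreatic β cell, harvested 48 h after lipid transfection with Lipofectamine 3000. The 4 control libraries (genotype label WT) received the empty vector pcDNA 3, and the 4 Klf4 libraries received pGloMyc-Klf4, which drives Klf4, a zinc-finger transcription factor. The names point to unlike plasmid backbones, so a change of backbone came with Klf4. Batch 1 held replicates 1 and 2 of each group, and batch 2 held replicates 3 and 4. The study asked what misexpressed Klf4 does to the transcriptome of these cells.

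Islet and gut endocrine cells make these hormones as longer precursors, which are cut, amidated and packed into granules. β cells secrete insulin (Ins1 and Ins2 in the mouse) together with amylin (Iapp), α cells glucagon (Gcg), δ cells somatostatin (Sst), PP cells pancreatic polypeptide (Ppy) and ε cells ghrelin (Ghrl). Peptide YY (Pyy) comes from gut L cells and some islet cells, gastrin (Gast) from the stomach and cholecystokinin (Cck) from the small intestine. A mature β cell is known to keep the hormones of the other islet cells low.

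Of the 10 genes, only Pyy, Iapp and Cck passed the test for a difference between plasmids. Pyy rose from at most 1 read per library to between 27 and 84, while Iapp and Cck fell to 0.955-fold and 0.949-fold. Both insulin genes, Gcg, Ghrl and Gast did not pass, and Sst and Ppy had too few reads to be tested. The test was edgeR's quasi-likelihood test on the counts with a term for batch, called at a Benjamini-Hochberg adjusted p under 0.05 over 18266 genes. Of all tested genes 36.9% were called, 21.2% as higher and 15.7% as lower, so 3 of 8 is near the background. Pyy passed the filter on low counts only through its Klf4 libraries, so the 8 do not stand for all members. The labels call the replicates biological without naming separate cultures, and the p-values measure the spread between these libraries.

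The libraries held 45417853 to 52731176 counts each. The targeted gene matched the labels: Klf4 was at 40.1 ± 3.11 CPM (read counts relative to library depth, TMM scaled) in control and 5040 ± 567 CPM in Klf4 libraries (SD, n = 4), a count that cannot separate plasmid from endogenous transcripts. The summed level of 10 β-cell markers was 25300 to 32100 CPM in control and 23600 to 32300 CPM in Klf4 libraries. Most of this sum came from the hormone genes Ins2, Iapp and Ins1 (means of 16800, 5930 and 3360 CPM in control). It is therefore no separate check of the β-cell label.

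Pyy, whose product slows gut motility and reduces food intake, lies on chr11:102106676-102107832 of GRCm38, minus strand, 6.5 kb from the start of Ppy, a gene of the same family. The promoter windows of Pyy, Ppy, Gcg and Ins1 are shown because they set the gene that rose beside its neighbour, a low-level islet gene and an abundant β-cell gene that did not pass. Each is the 250 bases before the RefSeq start (GRCm38.p6), with capitals marking CACCC on either strand (GGGTG is its reverse complement), a core that Krüppel-like factors are known to bind.
Pyy: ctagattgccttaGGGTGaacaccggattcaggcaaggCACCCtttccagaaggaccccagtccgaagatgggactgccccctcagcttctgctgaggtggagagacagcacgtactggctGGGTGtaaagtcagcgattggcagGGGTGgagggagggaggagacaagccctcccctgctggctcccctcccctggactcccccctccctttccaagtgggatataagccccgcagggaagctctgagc
Ppy: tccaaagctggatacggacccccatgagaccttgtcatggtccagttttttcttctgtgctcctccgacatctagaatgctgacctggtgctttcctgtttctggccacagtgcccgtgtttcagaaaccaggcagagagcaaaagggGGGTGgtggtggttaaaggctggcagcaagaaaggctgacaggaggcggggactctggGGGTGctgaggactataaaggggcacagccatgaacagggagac
Gcg: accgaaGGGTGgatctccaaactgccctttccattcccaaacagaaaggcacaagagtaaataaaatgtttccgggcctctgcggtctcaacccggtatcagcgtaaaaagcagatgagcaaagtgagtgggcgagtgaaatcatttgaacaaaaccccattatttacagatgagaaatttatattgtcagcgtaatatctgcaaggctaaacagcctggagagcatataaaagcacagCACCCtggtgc
Ins1: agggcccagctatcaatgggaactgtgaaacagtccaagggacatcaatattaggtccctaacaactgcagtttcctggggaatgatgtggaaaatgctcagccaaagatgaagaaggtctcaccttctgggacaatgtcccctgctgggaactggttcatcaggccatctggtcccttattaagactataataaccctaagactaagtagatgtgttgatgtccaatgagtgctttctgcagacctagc
These are chr11:102107833-102108082, minus strand, for Pyy, chr11:102101320-102101569, minus strand, for Ppy, chr2:62483654-62483903, minus strand, for Gcg and chr19:52264047-52264296, plus strand, for Ins1.

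The Pyy window held 4 matches, at 237, 212, 129 and 105 bases before the start, and 2.14% of 32817 RefSeq windows of this length held at least as many. Those windows were not matched for GC content, which was 61.2% for Pyy, 55.2% for Ppy, 44.8% for Gcg and 46.4% for Ins1. The window of a second annotated Pyy start overlaps the first and held 2 of the same matches. Ppy held 2 matches and Gcg 2, a number reached by 21.1% of windows, and Ins1 held 0. Sst, Iapp, Gast and Cck held 1 match each, as did 3 of the 4 Ghrl windows. At least 1 match was present in 52% of all windows. A match of these letters is a description and not a measured binding site.

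Pyy was counted at 0, 0, 1 and 0 reads in control replicates 1 to 4 and at 48, 27, 56 and 84 reads in Klf4 replicates 1 to 4. Every Klf4 library lay above every control library, in both batches. Summed over libraries, 1 read stood against 215, a ratio of 205 after scaling for depth (exact 95% interval 36.5 to 8150, counting error only). The fitted log2 fold change was 7.10 (SE 0.586; edgeR adjusted p = 2.66e-11), and it depends on edgeR's prior count because nearly all control values are 0. This was rank 142 of 18266 by log2 fold change. The rise left Pyy low in absolute terms, at 1.05 ± 0.414 CPM (SD, n = 4). In bulk libraries such as these, a change in the number of cells that express a gene and a change in RNA per cell cannot be told apart.

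Other genes shared the step from near 0. Of 6592 genes with at most 1 read in every control library and a read somewhere, 142, or 2.15%, had at least 10 reads in every Klf4 library. Of these, 69 had at least 27 in each, the lowest Klf4 count of Pyy, and both counts include Pyy. Genes chosen for near-0 control counts can hardly fall, so the counts describe rises only. Every Klf4 library had more genes with a read (26414 to 27216) than every control library (24509 to 25446). Among 12870 genes at an average log2 CPM no lower than 1, the 3 whose centred log2 CPM profile over the 8 libraries differed least from that of Pyy were Jsrp1, Fxyd5 and Dhh. Jsrp1, a protein of the muscle sarcoplasmic reticulum, had a root-mean-square difference of 0.22 log2 units. The values were 0.243 for Fxyd5, a regulator of the sodium pump, and 0.311 for Dhh, a hedgehog ligand. Their own log2 fold changes were 4.84, 4.49 and 4.17, against 7.10 for Pyy. The profiles were computed with a prior count of 2, which shrinks the step of a gene as low as Pyy, so the likeness depends on that setting. Pyy itself lay below the cut for candidates, at an average log2 CPM of -0.772.

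**Figure D1:**
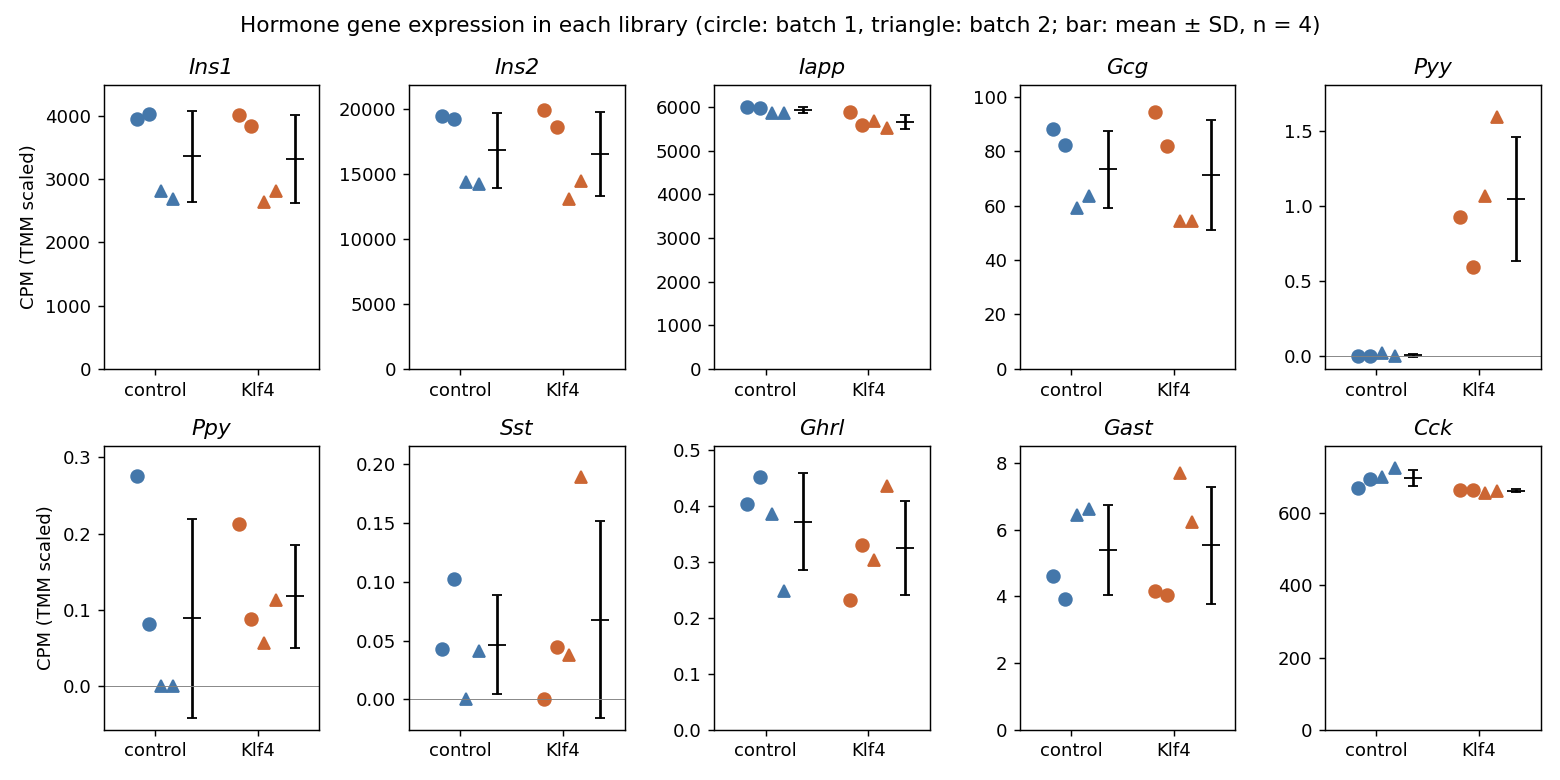
TMM-scaled CPM of each hormone gene (vertical axes, linear, each on its own scale) in the 4 control and 4 Klf4 libraries, with circles for batch 1, triangles for batch 2 and bars for the mean ± SD of each group. Pyy and Cck have no overlap between groups, whereas Ins1, Ins2, Gcg and Gast separate by batch.

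Ppy, Sst and Ghrl, the hormones of the other minor islet cells, stayed near the limit of counting. Ppy was counted at 13, 4, 0 and 0 reads in control and 11, 4, 3 and 6 reads in Klf4 libraries. The groups overlapped, and the ratio of summed counts, 24 against 17, was 1.35 (exact 95% interval 0.695 to 2.68). Sst was counted at 2, 5, 0 and 2 reads in control and 0, 2, 2 and 10 reads in Klf4 libraries. Its ratio of 14 to 9 summed reads was 1.49 (exact 95% interval 0.599 to 3.89), again with overlapping groups. A difference in either gene was not detectable at this depth.

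Ghrl was counted at 19, 22, 19 and 12 reads in control and 12, 15, 16 and 23 reads in Klf4 libraries. The groups overlapped, and its log2 fold change was -0.19 (95% interval -0.91 to 0.54; edgeR adjusted p = 0.733). In the annotation, 172 bases of Ghrl exons overlap the opposite-strand genes Gm26982 and Gm44033, and 9.91% of its 50-base stretches also occur in Gm44033. The strand setting of the counting is not given in the sources used here, so these counts are uncertain.

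The β-cell hormones were by far the most abundant members. Ins2 stood at 19420, 19200, 14360 and 14220 CPM in control replicates 1 to 4 and 19880, 18630, 13100 and 14480 CPM in Klf4 replicates 1 to 4. In both groups the batch 1 libraries were high and the batch 2 libraries low, and the groups overlapped. Its log2 fold change was -0.03 (95% interval -0.09 to 0.03; edgeR adjusted p = 0.501). Ins1 stood at 3946, 4024, 2806 and 2681 CPM in control and 4007, 3834, 2645 and 2809 CPM in Klf4 libraries. The pattern by batch was that of Ins2, and the log2 fold change was -0.02 (95% interval -0.06 to 0.03; edgeR adjusted p = 0.65). The annotated transcripts of Ins1 and Ins2 share 7 stretches of 50 bases, 0.691% of those in Ins1 and 0.465% of those in Ins2.

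Iapp, the gene of amylin, stood at 5998, 5984, 5862 and 5868 CPM in control and 5878, 5580, 5670 and 5519 CPM in Klf4 libraries. Klf4 replicate 1 lay above both batch 2 controls, so the groups overlapped, but within each batch both Klf4 libraries lay below both control libraries. Separation in the same direction within each batch held for 3 members (Pyy, Iapp and Cck) and 39.5% of tested genes. The fall was -0.07 on the log2 scale (SE 0.0209; edgeR adjusted p = 0.0128), with -0.06 in batch 1 and -0.07 in batch 2. The call was lost without the batch term (-0.07, edgeR adjusted p = 0.229) and with scaling factors from highly expressed genes alone (-0.03, edgeR adjusted p = 0.229), and with an offset for GC content and length the sign turned (0.11, edgeR adjusted p = 0.134). Over all alternatives the adjusted p of Iapp ran from 0.00194 to 0.229.

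Gcg stood at 88.22, 82.41, 59.1 and 63.36 CPM in control and 94.41, 82.05, 54.25 and 54.27 CPM in Klf4 libraries. Batch 1 was the higher batch in both groups, and the groups overlapped. The pooled log2 fold change was -0.06 (95% interval -0.18 to 0.06; edgeR adjusted p = 0.457), made up of 0.05 in batch 1 and -0.17 in batch 2. The difference between these, an interaction of -0.22, did not pass over all genes (edgeR adjusted p = 0.215, unadjusted p = 0.00635). It was the only one of the 8 tested members with an unadjusted interaction p under 0.05, none passed the adjusted threshold, and 0.838% of all genes did. Leaving out Klf4 replicate 1 brought Gcg itself past the threshold (-0.13, edgeR adjusted p = 0.0135, in a range of 0.0135 to 0.935 over all alternatives). The interaction passed without control replicate 1 (-0.29, adjusted p = 0.036) and without Klf4 replicate 2 (-0.32, adjusted p = 0.0347), in a range of 0.0347 to 0.665.

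Of the gut hormones, Cck stood at 671.4, 694.9, 700.9 and 726 CPM in control and 666, 663.9, 656.1 and 663.5 CPM in Klf4 libraries. All 4 Klf4 libraries lay below all 4 controls, by a narrow margin at control replicate 1. Such separation in either direction held for 26.1% of tested genes and for 2 members, Pyy and Cck. The log2 fold change of Cck was -0.08 (SE 0.0245; edgeR adjusted p = 0.0151), -0.04 in batch 1 and -0.11 in batch 2. The call was lost without control replicate 4 (-0.07, edgeR adjusted p = 0.066), without the batch term (-0.08, 0.141) and with factors from highly expressed genes (-0.04, 0.199), and the adjusted p ran from 0.00064 to 0.199 over all alternatives. The log2 fold change of Cck ran from -0.04 to -0.22, the latter with the replicate block and the GC and length offset together, where the call was kept. Iapp and Cck were the 2 members called with a log2 fold change within 0.1 of 0, as were 2.95% of all tested genes.

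Gast, which drives acid secretion, stood at 4.607, 3.921, 6.447 and 6.626 CPM in control and 4.158, 4.04, 7.696 and 6.234 CPM in Klf4 libraries. The batch 2 libraries were high in both groups, and the groups overlapped. Its log2 fold change was 0.03 (95% interval -0.17 to 0.23; edgeR adjusted p = 0.872).

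**Figure D2:**
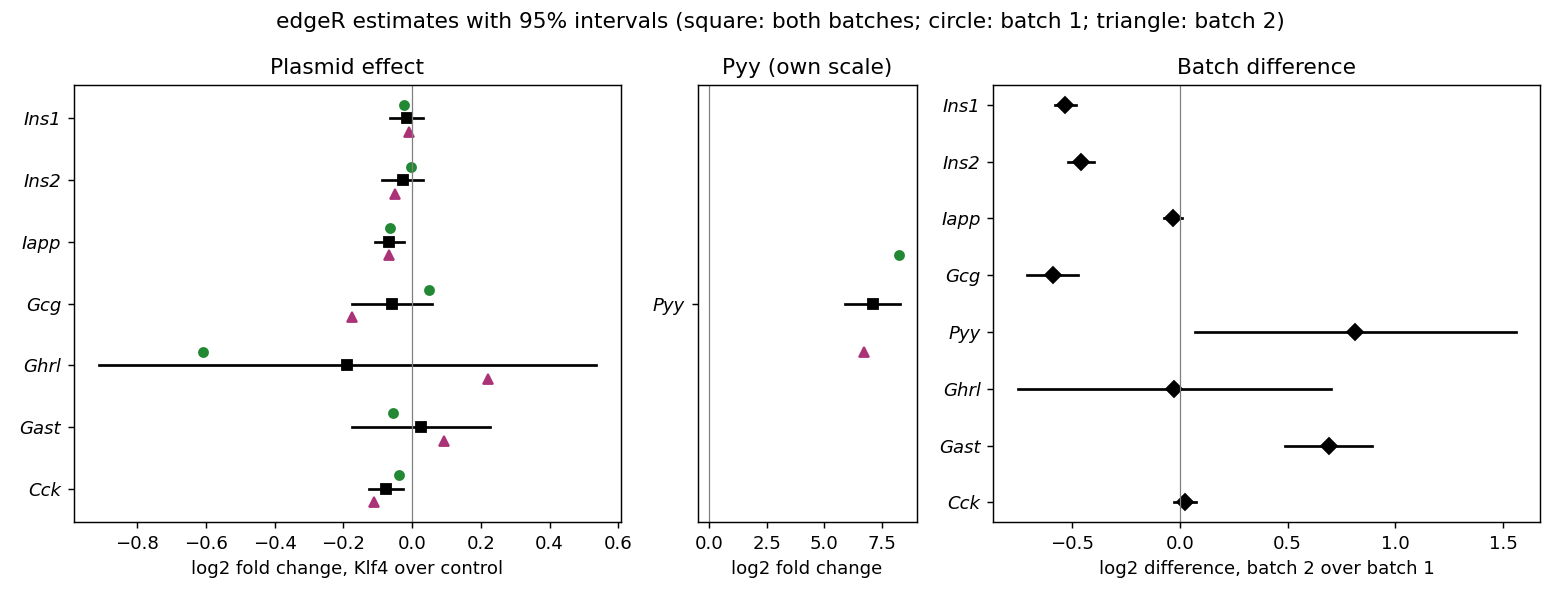
edgeR log2 estimates for the tested hormone genes with 95% intervals, for the plasmid (left, with Pyy on its own scale in the middle) and for batch 2 over batch 1 (right). In the plasmid panels only the intervals of Pyy, Iapp and Cck lie clear of 0, while the batch panel sets Ins1, Ins2 and Gcg below 0 and Gast and Pyy above it (Pyy did not pass after adjustment).

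Between batches, 4 of the 8 tested members differed, against 25.5% of all genes (11.8% lower and 13.7% higher in batch 2). Ins1 was 0.692-fold in batch 2 relative to batch 1 (log2 difference -0.53, SE 0.0236; edgeR adjusted p = 4.41e-16). Ins2 was 0.728-fold (-0.46, adjusted p = 3.11e-09) and Gcg 0.664-fold (-0.59, adjusted p = 2.67e-06) by the same edgeR test. Gast was 1.61-fold (0.69, adjusted p = 3.98e-06). For each of these 4 genes every library of one batch lay beyond every library of the other, as for 15.3% of tested genes. Pyy was higher in batch 2 by 0.81 on the log2 scale, with a 95% interval of 0.07 to 1.56, and did not pass after adjustment (edgeR adjusted p = 0.103). Iapp (-0.03, adjusted p = 0.284) and Cck (0.03, adjusted p = 0.499) did not pass. The count ratio of Iapp to the insulin genes therefore lay at 0.246 to 0.258 in batch 1 and 0.319 to 0.36 in batch 2. The labels do not say what the batches were.

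The makeup of the hormone pool differed between groups by less than the SD over 4 libraries, a spread that includes the difference between batches. The 10 genes together held 2.69% ± 0.373 of a control library and 2.62% ± 0.394 of a Klf4 library (SD, n = 4). By library the share was 3.02, 3, 2.37 and 2.36% in control replicates 1 to 4. It was 3.04, 2.87, 2.22 and 2.36% in Klf4 replicates 1 to 4. The count ratio of Ins2 to Ins1 was 5.03 ± 0.231 and 4.98 ± 0.127, or 4.07 ± 0.188 and 4.03 ± 0.1 per kilobase of exon. There were 276 ± 12 insulin counts for each Gcg count in control and 284 ± 27.8 in Klf4 libraries. These shares and ratios are descriptions with no test.

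Levels of different genes were set in order per kilobase of merged exon, in control libraries. Ins2 led at 12800 ± 2210 CPM per kb, followed by Iapp at 6090 ± 74.8 and Ins1 at 3170 ± 677 CPM per kb (SD, n = 4). Cck followed at 535 ± 17.2, Gcg at 49 ± 9.51 and Gast at 11.7 ± 2.92 CPM per kb. Ghrl at 0.345 ± 0.0807, Ppy at 0.179 ± 0.26, Sst at 0.0647 ± 0.0586 and Pyy at 0.00803 ± 0.0161 CPM per kb came last, and neighbours among these 4 did not differ beyond their spread. In Klf4 libraries Pyy stood at 1.66 ± 0.656 CPM per kb, between Gast at 12 ± 3.83 and Ghrl at 0.302 ± 0.0783. The order of the other genes was the same.

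Of 23 receptor genes for these hormones, 15 were tested, of which 5 rose, 1 fell and 9 did not pass (median log2 fold change 0.083, against -0.014 over all tested genes). Over all tested genes 21.2% were higher and 15.7% lower, which is the background for this and the following list counts. The fall was that of Cckar, a cholecystokinin receptor gene (-0.51, edgeR adjusted p = 0.0499), whose call was lost in 16 of 21 alternatives, with an adjusted p of 0.0287 to 0.282. The somatostatin receptor gene Sstr5 was counted at 568, 617, 344 and 332 reads in control and 1115, 950, 790 and 759 reads in Klf4 libraries, with no overlap (log2 fold change 0.92; edgeR adjusted p = 1.65e-12). Calcr, which forms the amylin receptor together with Ramp proteins, went from 0, 1, 0 and 0 reads to 30, 18, 33 and 24 reads. Its ratio was 100 (exact 95% interval 17.6 to 4000; edgeR adjusted p = 2.6e-08). Ramp3 rose by 1.04 on the log2 scale (edgeR adjusted p = 3.27e-05). The glucagon receptor gene Gcgr also rose, from 9, 8, 2 and 2 reads to 28, 20, 26 and 19 reads. The receptors of Pyy products were too low to be tested (Npy1r, Npy2r, Npy4r, Npy5r and Npy6r).

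Of 18 symbols for prohormone processing, 17 were in the table and 16 were tested, of which 1 rose, 6 fell and 9 did not pass (median -0.049). Pam, which amidates the end of amylin, PYY, gastrin and cholecystokinin, was at 397 ± 42.5 CPM in control and 366 ± 37.8 CPM in Klf4 libraries (SD, n = 4; log2 fold change -0.12, edgeR adjusted p = 0.000838). Ero1lb, an oxidase of the endoplasmic reticulum that helps proinsulin fold, fell by 0.14 on the log2 scale (edgeR adjusted p = 0.00103). Both calls were lost without the batch term (edgeR adjusted p = 0.409 and 0.323) and with the GC and length offset (0.55 and 0.435). Their adjusted p reached 0.6 for Pam and 0.518 for Ero1lb over all alternatives. Qpct, whose enzyme forms the pyroglutamate end of several peptides, went from 0, 0, 0 and 1 reads to 23, 15, 15 and 20 reads (ratio 69.8, exact 95% interval 12.1 to 2790; edgeR adjusted p = 5.71e-07). The convertase gene Pcsk1 (log2 fold change -0.04, adjusted p = 0.238) and the carboxypeptidase gene Cpe (-0.02, adjusted p = 0.464) did not pass.

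Other peptide hormone and neuropeptide genes were read beside the members. Of 63, 28 were tested, with 8 higher, 8 lower and 12 not called (median -0.015). Nppb, the gene of a natriuretic peptide, had 0 reads in every control library and 107, 85, 132 and 130 reads in the Klf4 libraries, at least 35.9-fold higher against a floor of 3 counts per library (edgeR adjusted p = 8.01e-15). Nts, the gut neuropeptide neurotensin, went from 4, 2, 0 and 0 reads to 98, 58, 121 and 140 reads (ratio 66.4, exact 95% interval 30.3 to 182; edgeR adjusted p = 2.28e-12). In Klf4 libraries Nppb reached 2.23 ± 0.307 CPM and Nts 2.03 ± 0.589 CPM (SD, n = 4). The granule protein gene Chgb fell by 0.13 on the log2 scale (edgeR adjusted p = 5.68e-06). Oxt fell as well, from 16, 17, 17 and 18 reads to 6, 0, 1 and 5 reads. Its ratio was 0.169 (exact 95% interval 0.0831 to 0.314, counting error only), and it passed the filter only through its control libraries.

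Of 25 transcription factor genes known to act at islet hormone genes, Klf4 left out, 21 were tested, with 4 higher, 6 lower and 11 not called (median -0.063). Tcf7l2 had 0 reads in every control library and 15, 14, 18 and 14 reads in the Klf4 libraries, at least 4.86-fold higher against the same floor (edgeR adjusted p = 1.76e-06). Irx2, an α-cell factor, rose by 1.46 on the log2 scale (edgeR adjusted p = 9.28e-05). Nkx2-2, an islet factor, stood at 147 ± 5.64 CPM in control and 128 ± 8.63 CPM in Klf4 libraries and fell by 0.20 on the log2 scale (edgeR adjusted p = 0.000339). Genes such as Calcr, Gcgr, Qpct, Nppb, Nts and Tcf7l2 passed the filter only through their Klf4 libraries, and Oxt only through its control libraries. The list counts include all of these genes.

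**Figure D3:**
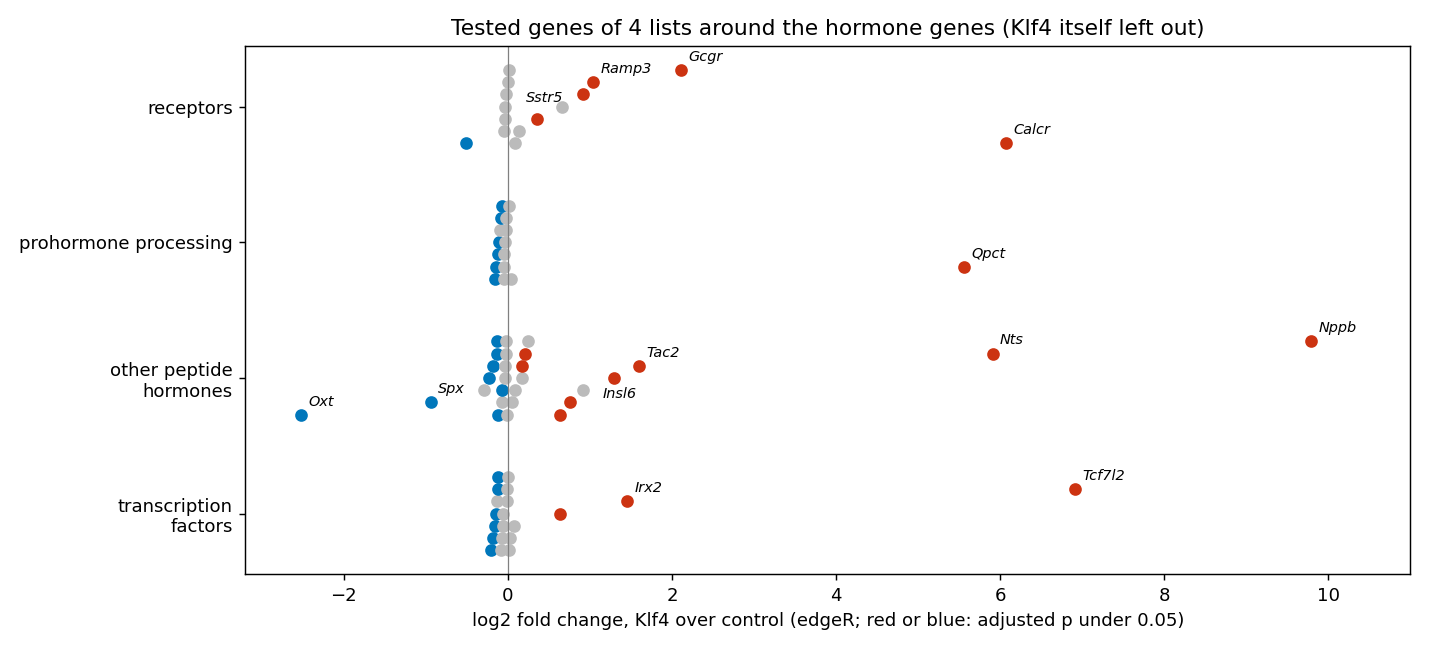
Log2 fold changes (horizontal axis, Klf4 over control) of the reported genes tested in the 4 lists, red where higher and blue where lower at an edgeR adjusted p under 0.05, grey otherwise; the height within a list has no meaning. The called falls lie close to 0 apart from Oxt, Spx and Cckar, whereas Nppb, Tcf7l2, Calcr, Nts and Qpct lie beyond 5.

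Markers of cells that could make these hormones were read as whole lists, beside 21.2% of all tested genes called higher and 15.7% called lower. Of the 3 PP-cell markers, Pyy rose, Etv1 fell by 0.22 on the log2 scale (edgeR adjusted p = 0.000138) and Ppy was not tested. Their summed level was 249 to 285 CPM in control and 221 to 236 CPM in Klf4 libraries. Nearly all of it was Etv1, as the means of Pyy and Ppy in Klf4 libraries were 1.05 and 0.118 CPM. Of 7 enteroendocrine markers, 6 were tested, 1 was higher (Nts) and 2 lower (Cck and Sct), with sums of 951 to 1210 CPM and 887 to 1070 CPM. Cck and Sct made up most of these sums (means of 698 and 377 CPM in control). Of 6 tested α-cell markers 2 were higher and 2 lower, with sums of 841 to 988 CPM in control and 814 to 942 CPM in Klf4 libraries. Of 10 β-cell markers 5 were lower and none higher. The falls were small, at -0.07 for Iapp, -0.12 for Pdx1, -0.13 for G6pc2, -0.18 for Mafa and -0.22 for Slc30a8 (log2). Iapp is also a member, and Pdx1 and Mafa are also counted among the transcription factors. Iapp, Pdx1 and Mafa lost their calls without the batch term (edgeR adjusted p = 0.229, 0.0535 and 0.459). G6pc2 and Slc30a8 were not examined under the alternatives. The δ-cell list had 2 tested genes and no call, at 26.7 to 45.8 CPM and 28.1 to 43.5 CPM. The ε-cell list moved from 19.4 to 23.4 CPM to 33.9 to 39.2 CPM through Acsl1. Duct markers moved from 2.57 to 4.35 CPM to 6.86 to 7.93 CPM. Of the 5 duct genes 3 were tested and 2 were higher, among them Krt19, which passed the filter only through its Klf4 libraries. Mesenchyme markers moved from 1.51 to 2.61 CPM to 4.56 to 5.63 CPM and endothelial markers from 3.82 to 4.15 CPM to 4.49 to 4.95 CPM. Acinar markers (1.66 to 4.26 CPM and 1.92 to 3.07 CPM) and macrophage markers (5.63 to 6.22 CPM and 5.47 to 7.15 CPM) overlapped. Duct, mesenchyme, endothelial and ε-cell sums were higher in the same libraries as Pyy, and their part in its rise was not tested.

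Genes near the members were read for comparison, beside 21.2% of all tested genes called higher and 15.7% called lower. Within 300 kb of Ins2, 6 of 9 tested genes were higher and 1 lower. Of those 6, H19 and Tspan32 passed the filter only through their Klf4 libraries. Higher and lower counts were 1 and 1 of 9 for Cck, 2 and 4 of 17 for Ghrl, 0 and 2 of 9 for Iapp and 0 and 1 of 3 for Gcg. For Ppy, whose window overlaps that of Pyy, they were 7 and 5 of 19. Sst had 1 tested gene, not called. Of 18 tested genes within 300 kb of the Pyy start, 6 were higher and 5 lower, but the nearest on either side, the pseudogene Gm11585 at 16.2 kb (log2 fold change 0.20, edgeR adjusted p = 0.282) and Mpp2 at 19.3 kb (0.04, 0.402), did not pass. Farther out, Cd300lg at 66.3 kb (2.22), Sost at 140.8 kb (2.42), Slc4a1 at 258.4 kb (1.77) and Ubtf at 211.9 kb (0.69) had the highest log2 fold changes of the 6. Around Gast, of 23 tested genes 11 were higher and 3 lower. The higher ones include 8 of 13 keratin genes, at 64.5 to 238.2 kb, with log2 fold changes of 2.46 to 11.55. These 8 passed the filter on low counts only through their Klf4 libraries, and the remaining keratin genes were too low to be tested. That every tested keratin gene was higher therefore follows in part from the filter. Gast itself and Eif1, 14.5 kb away (0.03, edgeR adjusted p = 0.423), did not pass. Keratin genes resemble each other closely, so their counts may be split between copies.

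**Figure D4:**
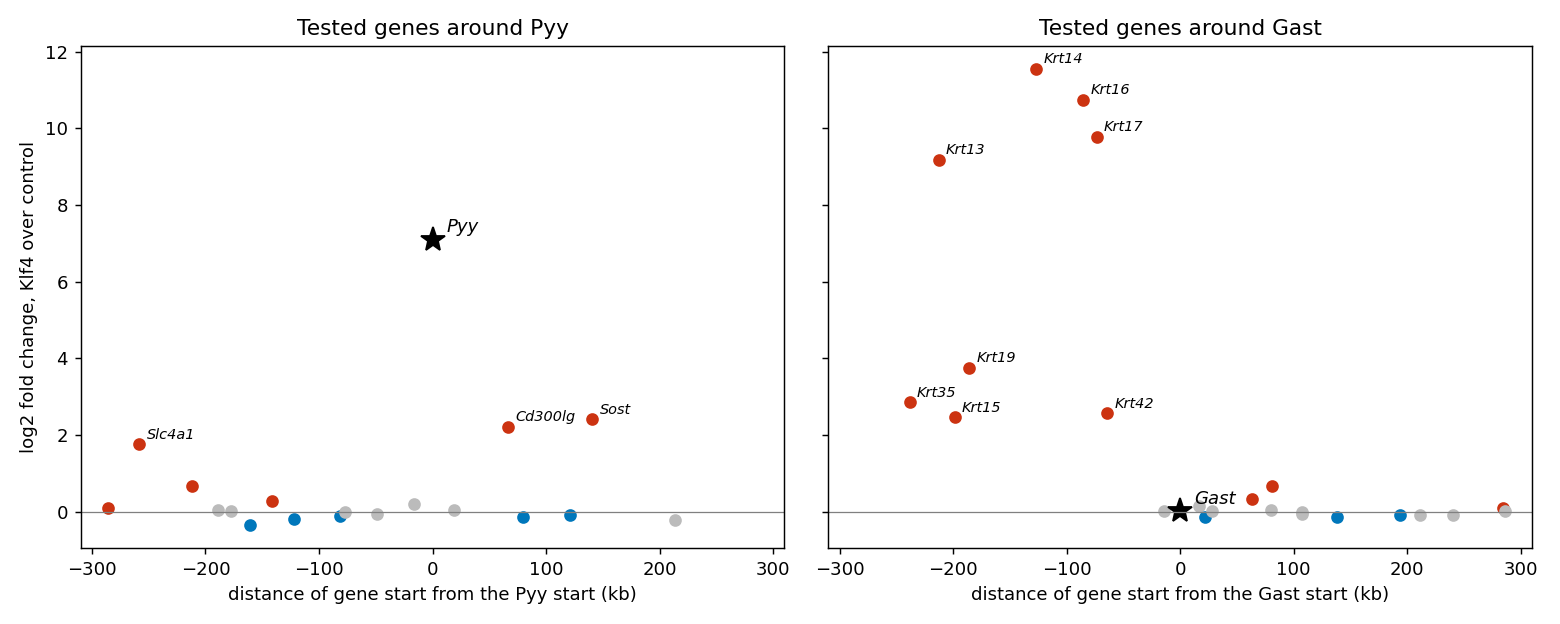
Log2 fold change (vertical axis, Klf4 over control) of tested genes against the distance of their start from that of Pyy (left) or Gast (right) in kb, red where higher and blue where lower at an edgeR adjusted p under 0.05, grey otherwise, with the hormone gene as a star. Pyy stands at 7.10, above all its tested neighbours, of which Sost is highest at 2.42, and Gast at 0.03 beside keratin genes that reach 11.55.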

How the data were processed

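Whole-number read counts per gene, which the authors deposited for 8 libraries, were used as given. Per the labels' protocols, polyadenylated RNA was sequenced after preparation by a Tecan kit (Universal Plus mRNA-seq). FastQC, STAR, featureCounts, edgeR and the build mm10 are named in the submitters' processing notes; strand setting and annotation are not given in the sources used here. Gene identifiers matched GENCODE M21 (GRCm38), and promoters came from RefSeq, which held 9 of the 10 members. The extraction text mentions islets, while every sample is labelled MIN6.

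Counts were filtered with filterByExpr (minimum count 10; 37270 genes removed), TMM scaled (factors 0.996 to 1.01) and fitted with edgeR 4.0.16 (limma 3.58.1, R 4.3.3) by robust quasi-likelihood with terms for batch and plasmid, with Benjamini-Hochberg adjustment over all tested genes. The fit was tested on simulated data. The biological coefficient of variation was 4.08%. Replicates differed by more than sampling noise (chi-square per degree of freedom 4.23 to 23.3). Same-numbered libraries deviated together (correlations 0.46 to 0.61 over 10485 genes), but libraries of the same batch and another number did so equally (mean 0.53 against 0.54).

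The members and lists were chosen with earlier results of these data known. From each list the 3 called genes of smallest adjusted p were named, except that 1 gene of the transcription factor list is not reported here, though the list counts include it; Gcgr, Cckar, Oxt, Pcsk1, Cpe and the genes given with marker lists or neighbours were named after their values were seen. Alternatives were DESeq2 1.42.0 size factors and Wald test, limma-voom, other filters, scalings and thresholds, no batch term, a replicate block, and the omission of each library. Figures used Python 3.11.15.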

Additional observations from a re-analysis of the deposited data

Results flagged for a closer look

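Among 104 checks for a library far from the other 3 of its group, 4 were met. A nominal rate of 1 in 20 would give 5.2, but that rate need not hold for low counts or for groups made of 2 batches. In 3 of the 4 checks met, a single read stood alone in the control group, which meets the check by construction. These were Pyy in control replicate 3 (0.0203 CPM), Calcr in control replicate 2 (0.0205 CPM) and Qpct in control replicate 4 (0.0207 CPM), each with 0 in the other control libraries. The other was Nkx2-2, at 139 CPM in control replicate 2 and 150 to 151 CPM in the other controls.

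Ero1lb and Mafa, a β-cell factor that activates insulin genes, were flagged by the edgeR interaction test of plasmid and batch. For Ero1lb the interaction was -0.184 log2, with a fall of 0.05 in batch 1 and 0.23 in batch 2. For Mafa it was -0.249 log2, with -0.05 in batch 1 and -0.30 in batch 2. At an adjusted p under 0.05, 0.838% of all tested genes passed this test. Neither interaction was examined under the alternatives. The pooled log2 fold change of Mafa was -0.18 (edgeR adjusted p = 0.0238). This call was lost without the batch term (edgeR adjusted p = 0.459), with the replicate block (0.0625) and without Klf4 replicate 4 (0.0844).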

How the results depend on the processing

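The rise of Pyy passed the threshold in every alternative that tested it, with log2 fold changes of 6.20 to 8.56; when 1 CPM was required in 4 libraries, it was not tested. The 3 hormone genes called became 1 (Pyy) without the batch term, with factors from genes of an average log2 CPM of 6 or more, and at an adjusted p under 0.01. They ranged from 2 to 4 when 1 library was left out. Of all genes, 6742 were called; this was 4134 without the batch term, 4349 with the replicate block and the GC and length offset together, and 5994 to 7143 with 1 library left out. Factors from highly expressed genes gave 4416 higher and 1679 lower, against 3869 and 2873, and moved the median of all genes by 0.035 log2. With the replicate block alone, 6378 genes and the same number of hormone genes, 3, were called; of the list genes, Mafa (-0.18, edgeR adjusted p = 0.0625) and Cckar (-0.52, 0.0571) lost their calls, and no other call among the hormone or list genes changed. The count of hormone genes that differed between batches, 4, was 4 in each of the 18 alternatives run for it, of which the GC and length offset, the 0.01 threshold and the non-robust fit were chosen after seeing the data; it was not run with the replicate block or without the batch term, which leave no batch coefficient. The count of hormone genes with an interaction, 0, was 0 to 1 when 1 library was left out.

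Small log2 fold changes turned sign. With factors from highly expressed genes Ins1 was 0.019 and Ins2 0.008. With the GC and length offset Ins1 was 0.082, Gcg 0.045, Iapp 0.106 and Pcsk2 0.008, the batch difference of Iapp was 0.017, and Ins2 passed the threshold (-0.135, edgeR adjusted p = 0.0407). With that offset and the replicate block Ins1 was 0.08, Gcg 0.039, Iapp 0.104, Gast -0.003 and Pcsk2 0.006. Gast was -0.016 without control replicate 2, -0.011 without control replicate 3 and -0.074 without Klf4 replicate 3, in a range of -0.074 to 0.074 with 1 library left out. The interaction of Pyy was 0.778 without control replicate 3, in a range of -2.393 to 0.778. The cause was not tested. Depth limits Sst, Ppy and Ghrl, whose low counts leave wide intervals. The non-robust fit, chosen after seeing the data, called 6684 genes.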
